A study of Homo sapiens with 2 samples.

Results

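Collagen chains were examined in the established human melanoma line A375 after silencing of BMI1, a subunit of Polycomb repressive complex 1. The chains were all array rows whose gene symbol in the platform's annotation had the form COL, a number, A and a number. This gave 46 rows for 42 genes of 27 collagen types, out of 45033 rows and 16583 named genes on the array. The control array was hybridised with RNA of A375 cells given an empty lentivirus (empty vector), the second array with RNA of A375 cells given a virus that encodes a hairpin RNA to silence BMI1 (shBMI-1). Both cultures were A375 and differed, per the labels, only in the viral insert, and the labels do not say whether either was a clone or a pool. Each group had 1 array, so no value has a replicate error and no test between the groups was possible.

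Collagens are matrix proteins in which 3 chains wind into a triple helix, and types with several genes are built from fixed combinations of chains. Fibril-forming collagens make the banded fibres of connective tissue. Type IV collagen is the sheet-like scaffold of basement membranes, and type VI makes beaded filaments around cells. FACIT collagens, in which the triple helix is interrupted, sit on the surface of fibrils, and the transmembrane and multiplexin types lie at cell surfaces and basement membranes. In skin, melanocytes rest on a basement membrane, and melanoma cells meet fibrillar collagen once they enter the dermis.

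Values are linear intensities as the authors deposited them, and ratios are log2 of shBMI-1 over empty vector. Intensities of different genes come from different probes, so differences between genes are not read as differences in RNA amount. Only the brightness limit and the sums of marker intensities set genes side by side. A gene was counted as above the brightness limit where its intensity reached the median of all rows, 131.2 on the control array and 129.8 on that of shBMI-1, on at least 1 array. The only measurable error was the row SD, the pooled SD of log2 ratios between different rows of one gene. It depended on brightness, from 0.76 in the band of mean intensity between 64 and 128 and 0.42 between 256 and 512 to 0.25 between 1024 and 2048. The row SD of a gene's band is given beside many of the ratios, but not all. The intensity of BMI1 itself was 68.6 in the control and 25.8 after silencing (log2 ratio -1.41, row SD 0.80), under the brightness limit on both arrays. With a pseudocount of 50 added to each intensity, the BMI1 ratio was -0.65, short of 2-fold. The melanocyte lineage genes SOX10 (7608 and 6889) and S100B (1123 and 1452) were above the limit, while the other 5 of the 7 melanoma markers on the array (PMEL, MITF, TYR, MLANA and TYRP1) were under it. Of those 5, PMEL (22.5 and 51.8) and MITF (32.0 and 72.8) had ratios of 1.20 and 1.19, with a row SD of 0.80. The ratios of TYR, MLANA and TYRP1 were -0.07, 0.04 and -0.01.

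Of the 42 chains, 15 were above the brightness limit and 27 were under it on both arrays. COL9A2 was the only one of the 15 that was at least 2-fold higher, and none was at least 2-fold lower. Among all 8921 named genes above the limit, 3.23% were higher and 3.55% lower by 2-fold or more, so 1 of 15 and 0 of 15 are near those shares. At 1.5-fold, COL9A2 and COL18A1 were higher and COL5A1 and COL6A3 were lower. COL9A2 and COL18A1 passed the limit only through the shBMI-1 array, where they were brighter, so the limit itself favoured their being counted as higher. COL2A1 also passed through that array alone and COL4A3 through the control array alone, and none of the 11 chains above the median on both arrays was at least 2-fold higher. The shares of all genes past 1.5-fold were 10.1% higher and 8.45% lower. Of the 15 ratios, 5 were larger than 1 row SD (33.3%, against 36.1% of all genes above the limit), and 2, those of COL5A1 and COL9A2, were larger than 2 row SD (13.3%, against 9.3%). The median ratio of the 15 chains was 0.00 as deposited, 0.01 after median centring, -0.08 after quantile and -0.09 after loess normalization. The median of all genes above the limit was 0.09, 0.10, 0.03 and 0.02 under the same settings. In RNA of whole cultures, fewer cells that make a chain and less of its RNA per cell cannot be told apart.

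**Figure D1:**
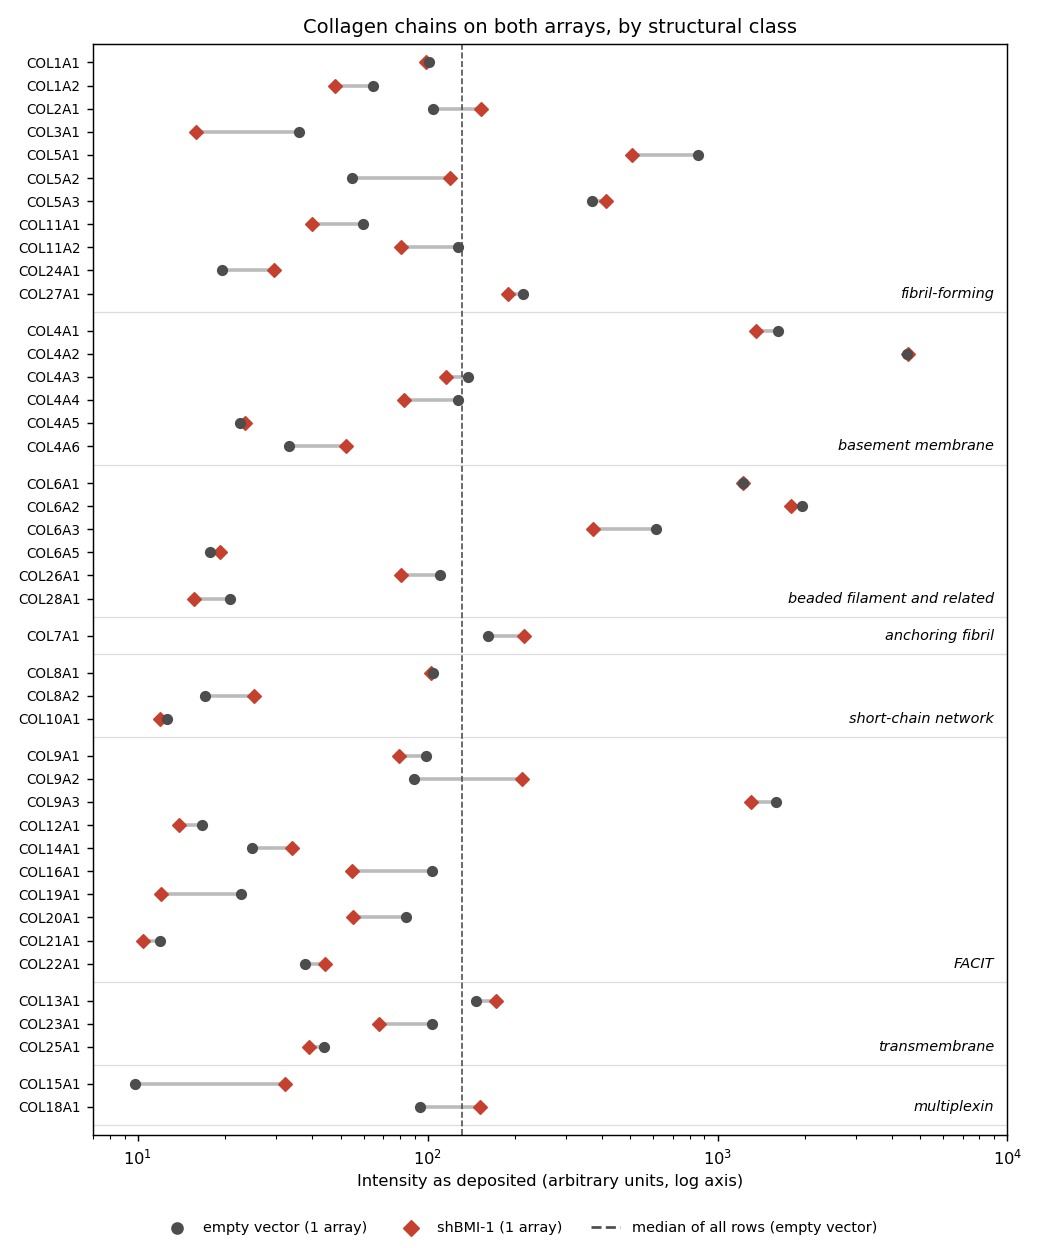
Intensity (arbitrary units, log axis) of each of the 42 collagen chains on the empty vector array (circles) and the shBMI-1 array (diamonds), 1 array each, grouped by structural class. The dashed line is the median of all rows of the empty vector array, 131.2. COL4A1, COL4A2, COL6A1, COL6A2 and COL9A3 lie far to its right on both arrays, and 27 chains lie to the left of their array's median on both.

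The fibril-forming class held the largest negative ratio of the 15 chains, that of COL5A1. Type V collagen is a minor component that regulates the diameter of type I fibrils, and COL5A1 encodes the chain shared by its common forms. COL5A1 had an intensity of 856 in the control and 506 after silencing. It was thus 1.69-fold lower (log2 ratio -0.76), 2.55 times its row SD of 0.30, and it stayed between -0.83 and -0.70 under every scaling, pseudocount and row summary tried. COL5A3, which replaces a chain in some type V molecules, was at 369 and 410 (ratio 0.15, row SD 0.42). The ratios of COL5A1 and COL5A3 differed by 0.91, larger than their combined row SD of 0.51. The remaining partner, COL5A2, was dim on both arrays, at 54.5 and 120. Its ratio of 1.13 had a row SD of 0.76, and with a pseudocount of 50 it was 0.70. The 3 chains of type V therefore had ratios on both sides of 0.

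The chains of the abundant fibrillar collagens of connective tissue were dim. COL1A1 and COL1A2, which form type I collagen and are named here with their values seen, were at 101 and 98.2 and at 64.8 and 48.0. Their ratios of -0.03 and -0.43 were smaller than their row SDs of 0.76 and 0.80. COL3A1, the sole chain of type III collagen, was at 35.9 and 15.8. It was 2.27-fold lower (ratio -1.18, row SD 0.72), but -0.38 with a pseudocount of 50. COL3A1 and COL5A2 are neighbours with no protein-coding gene between them, and their ratios had opposite signs. COL2A1, the chain of cartilage type II collagen, passed the limit on the shBMI-1 array alone, at 104 and 153 (ratio 0.56, row SD 0.76). COL27A1, a fibrillar chain of cartilage and developing tissue, was at 213 and 189 (ratio -0.17, row SD 0.60).

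Type IV collagen is built from 6 chains encoded as 3 head-to-head gene pairs, in which both genes of a pair start close together and are read in opposite directions. The stretches between the starts are shown because each lies upstream of both genes of a pair, whose ratios are given below. All are from RefSeq, build GRCh38.p14, on the plus strand. Capitals mark GC boxes (GGGCGG or its reverse complement CCGCCC) and CCAAT boxes (CCAAT or its reverse complement ATTGG). The 126 bases between COL4A1 and COL4A2 are chr13:110307158-110307283, and the 135 bases between COL4A4 and COL4A3 are chr2:227164489-227164623. Of the 379 bases between COL4A6 and COL4A5, the 250 next to COL4A5 are shown, chrX:108439588-108439837.
COL4A1 and COL4A2: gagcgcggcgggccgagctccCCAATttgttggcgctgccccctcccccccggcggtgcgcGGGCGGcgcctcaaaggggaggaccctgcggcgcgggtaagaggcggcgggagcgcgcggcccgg
COL4A4 and COL4A3: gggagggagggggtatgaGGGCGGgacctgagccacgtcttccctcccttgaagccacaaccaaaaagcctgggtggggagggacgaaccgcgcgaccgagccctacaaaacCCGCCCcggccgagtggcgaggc
COL4A6 and COL4A5: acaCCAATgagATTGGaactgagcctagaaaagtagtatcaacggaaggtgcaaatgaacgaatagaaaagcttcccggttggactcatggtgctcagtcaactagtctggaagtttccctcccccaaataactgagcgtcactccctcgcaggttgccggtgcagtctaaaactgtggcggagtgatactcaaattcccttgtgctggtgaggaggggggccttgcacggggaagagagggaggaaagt

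The first stretch held 1 GC box, 1 CCAAT box and 20 CpG dinucleotides, the second 2 GC boxes, no CCAAT box and 11 CpGs, and the third no GC box, 2 CCAAT boxes and 8 CpGs. A GC box occurred in 34.6% and a CCAAT box in 21.1% of all 35116 RefSeq promoters within 126 bases upstream of the start. Within 135 bases the shares were 35.5% and 22.1%, and within 250 bases 42.6% and 32%. A match is a string of letters and not evidence of binding.

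COL4A1 and COL4A2 form the type IV collagen found in nearly all basement membranes. COL4A1 was at 1620 and 1355 (ratio -0.26, row SD 0.25), and COL4A2 was at 4513 and 4550 (ratio 0.01, row SD 0.20). The COL4A2 ratio was -0.06 after loess and -0.05 after quantile normalization. The difference between their ratios, 0.27, was smaller than the combined row SD of 0.32. COL4A3 and COL4A4, chains of the basement membranes of kidney, lung and inner ear, were at 137 and 116 and at 128 and 82.6. COL4A3 was just inside the brightness limit and COL4A4 just outside. Their ratios of -0.24 and -0.63 had the same sign and were each smaller than the row SD of 0.76. COL4A5 was at 22.6 and 23.3 (ratio 0.05). COL4A6 had 2 rows, at 50.5 and 58.4 and at 22.0 and 46.5, with ratios of 0.21 and 1.08. With rows averaged, COL4A1 was the only one of the 6 type IV genes whose ratio exceeded its row SD, at 1.04 times.

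Type VI collagen is assembled from COL6A1, COL6A2 and a further, much larger chain, of which COL6A3 is the widely expressed one. COL6A1 was at 1224 and 1223, a ratio of 0.00 as deposited, 0.01 after median centring and -0.09 after loess normalization. COL6A2 was measured by 3 rows, at 1646 and 1412, 2165 and 2000, and 2115 and 2031. Their ratios were -0.22, -0.11 and -0.06, so the rows had the same sign and lay within 1 row SD (0.25) of each other. COL6A3 was at 612 and 372, 1.65-fold lower (ratio -0.72, row SD 0.42), and it ranged from -0.79 to -0.65 over the scalings, pseudocount and row summaries. The COL6A3 ratio differed from that of COL6A1 by 0.72 and from that of COL6A2 by 0.59, both larger than the combined row SD of 0.49. COL6A5, which can take the place of COL6A3, was dim on both arrays (17.7 and 19.2). COL6A1 and COL6A2 are neighbours on the same chromosome, and COL6A3 lies elsewhere. A link between gene position and ratio was not tested, for these or for other neighbouring chains.

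COL7A1, the chain of the anchoring fibrils that tie the epidermal basement membrane to the dermis, was at 161 and 214 (ratio 0.41, row SD 0.60). Among the FACIT collagens, COL9A2 and COL9A3 passed the limit. They encode chains of type IX collagen, which coats the type II fibrils of cartilage and the eye. COL9A2 was at 89.3 in the control and 212 after silencing. It was 2.37-fold higher (ratio 1.25, row SD 0.60), but 0.91 with a pseudocount of 50, short of 2-fold, and the empty vector value was under that array's median. COL9A3 was at 1588 and 1301, a ratio of -0.29 with a row SD of 0.25. Their ratios differed by 1.53, which was 2.37 times the combined row SD of 0.65 and the largest difference among the 8 pairs of chains of one type that were both above the limit. In 4 of these 8 pairs the difference exceeded the combined row SD, namely COL9A2 with COL9A3, COL5A1 with COL5A3, and COL6A3 with each of COL6A1 and COL6A2. The difference exceeded 2 combined row SDs in 1 of the 8, and 1 combined row SD in 10 of all 30 pairs, dim chains included, and the pairs share chains. No share was computed for pairs of other genes, so these counts have no background. Of all single genes above the limit, the ratios of 36.1% exceeded 1 row SD and those of 9.3% exceeded 2. COL9A1, the last chain of type IX, was dim (98.7 and 79.4, ratio -0.31).

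At cell surfaces and basement membranes, COL13A1, a transmembrane collagen of cell adhesion sites and the neuromuscular junction, was at 146 and 172 (ratio 0.23, row SD 0.60). COL18A1, a multiplexin whose end fragment is endostatin, was at 93.8 and 152. Its ratio of 0.69 was smaller than the row SD of 0.76, and it was 0.49 with a pseudocount of 50. COL15A1, the other multiplexin, was dim on both arrays, at 9.78 and 32.2. It was 3.29-fold higher as deposited (ratio 1.72, row SD 0.72), but its ratio was 0.46 with a pseudocount of 50.

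**Figure D2:**
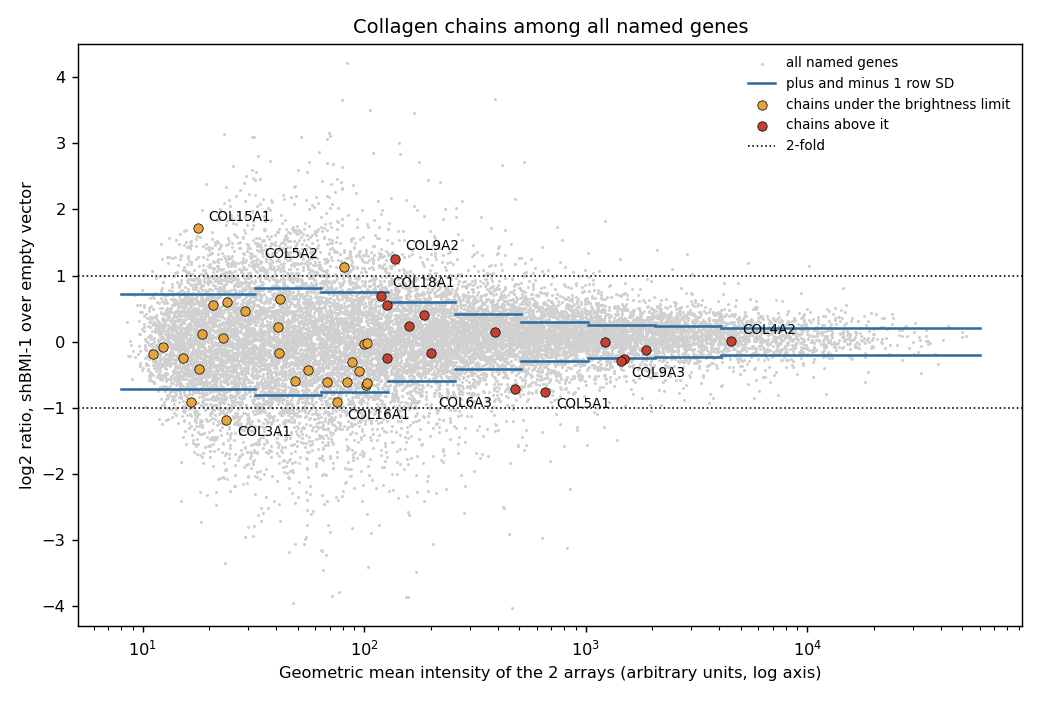
log2 ratio of shBMI-1 over empty vector against the geometric mean intensity of the 2 arrays (log axis), for all named genes (grey), chains above the brightness limit (red) and chains under it (orange). Blue lines are plus and minus 1 row SD in each intensity band and dotted lines mark 2-fold. Among the red points, COL5A1, COL6A3 and COL9A2 lie farthest outside the blue lines, at ratios of -0.76, -0.72 and 1.25, and COL4A1 and COL9A3 lie just outside.

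Of the 27 dim chains, COL5A2 and COL15A1 were at least 2-fold higher and COL3A1 at least 2-fold lower. The shares were 7.41% and 3.7%, against 7.77% and 7.83% of all 7662 genes under the limit. At 1.5-fold, 4 of the 27 were higher and 8 were lower (29.6%), where 18.7% and 18.9% of all genes under the limit were. The 8 were COL3A1, COL4A4, COL11A1, COL11A2, COL16A1, COL19A1, COL20A1 and COL23A1, listed after their values were seen. Their ratios ran from -1.18 for COL3A1 to -0.59 for COL11A1, and those of COL3A1, COL16A1 and COL19A1 exceeded their row SDs. The median ratio of the dim chains was -0.19, or -0.06 with a pseudocount of 50, and 18 of them were below 0. The median of all genes under the limit was -0.01, with 50.4% below 0. COL25A1, a transmembrane chain of neurons, had 2 rows that gave ratios of -0.14 and -0.20. One further row was tied to COL17A1 by its RefSeq accession but carried no symbol in the platform's table. It was not counted as a member, and its values were 61.8 and 56.4.

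Over all 42 chains, 26 had a ratio below 0 (61.9%, against 44.8% of all named genes), with a median of -0.15. When the limit was raised to the 75th percentile of all rows, 7 chains passed (COL4A1, COL4A2, COL5A1, COL6A1, COL6A2, COL6A3 and COL9A3). Of these 7, 6 had ratios below 0 and their median was -0.26, where 36.4% of the 4536 genes that passed were below 0 and the median was 0.09. The count rests in part on ratios near 0. It was 5 of 7 after median centring and 7 of 7 after quantile or loess normalization, with 34.3%, 46% and 47.2% of all genes below 0. COL5A1 and COL6A3 were the only ones of the 7 past 1.5-fold. The raised limit was 548.7 on the control array and 565.0 on that of shBMI-1. As deposited, COL5A1 and COL6A3 passed it only through the control array, where they were brighter. The limit itself thus favoured their being counted as lower. None of the 5 chains above it on both arrays was past 1.5-fold.

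**Figure D3:**
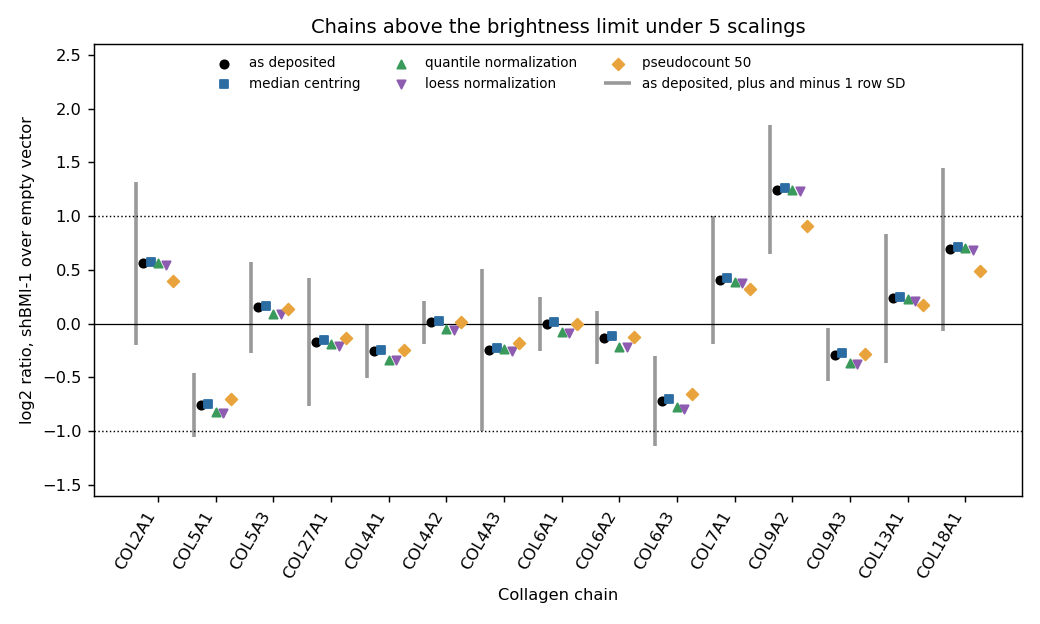
log2 ratio of shBMI-1 over empty vector for the 15 chains above the brightness limit, as deposited and under 4 other treatments of the values. Grey bars span 1 row SD to each side of the deposited ratio, and dotted lines mark 2-fold. COL5A1 and COL6A3 stay between -0.83 and -0.65 under all 5, while COL9A2 moves from 1.25 to 0.91 with a pseudocount of 50.

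The sequences upstream of COL5A1, COL6A3 and COL9A2 are shown because the ratios of these chains differed from that of a partner by more than the combined row SD, a spread between rows of the same 2 arrays that holds no variation between cultures. Each is the 250 bases before the start in RefSeq, GRCh38.p14, read along the gene, with GC boxes in capitals. COL5A1 is on the plus strand (chr9:134641553-134641802), COL6A3 on the minus strand (chr2:237414165-237414414) and COL9A2 on the minus strand (chr1:40317287-40317536).
COL5A1: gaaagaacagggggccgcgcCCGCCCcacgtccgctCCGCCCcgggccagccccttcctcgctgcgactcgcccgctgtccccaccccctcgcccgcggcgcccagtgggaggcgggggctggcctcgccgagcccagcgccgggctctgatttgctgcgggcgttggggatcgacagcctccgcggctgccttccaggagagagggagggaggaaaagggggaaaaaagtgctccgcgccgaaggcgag
COL6A3: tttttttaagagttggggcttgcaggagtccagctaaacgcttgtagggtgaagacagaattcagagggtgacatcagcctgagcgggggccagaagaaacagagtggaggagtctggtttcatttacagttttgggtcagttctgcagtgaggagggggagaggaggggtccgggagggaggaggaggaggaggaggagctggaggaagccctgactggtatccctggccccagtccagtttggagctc
COL9A2: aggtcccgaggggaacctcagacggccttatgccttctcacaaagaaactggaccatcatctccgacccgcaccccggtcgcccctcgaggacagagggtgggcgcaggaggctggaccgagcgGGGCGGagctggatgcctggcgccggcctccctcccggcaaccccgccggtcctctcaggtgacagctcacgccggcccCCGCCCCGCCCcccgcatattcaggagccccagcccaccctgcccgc

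COL5A1 held 2 GC boxes and 29 CpGs, COL6A3 no GC box and 3 CpGs, and COL9A2 3 GC boxes, 2 of them overlapping, and 22 CpGs. None of the 3 held a CCAAT box. Promoters were matched for 30 of the 42 chains. In the 250 upstream bases the median was 19.5 CpGs for the 12 matched chains above the limit, 14 for the 18 under it and 17 for 15842 protein-coding genes. COL6A3 had the fewest CpGs of the 12. Among the 15 chains above the limit, COL5A1 and COL6A3 had the largest negative ratios and COL9A2 the largest positive one. Any link between CpG number and ratio was not tested.

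Genes that fold, modify and export collagen chains were then compared. Of 30 genes listed, 27 were on the array under a symbol and 20 were above the brightness limit, with none at least 2-fold higher or lower. Their median ratio was 0.02 as deposited, and -0.02 after quantile and -0.03 after loess normalization. Of all genes above the limit, 3.23% were at least 2-fold higher and 3.55% lower, with a median ratio of 0.09 as deposited. The prolyl 4-hydroxylase genes P4HA1 (503 and 434), P4HA2 (2063 and 1700) and P4HB (4213 and 4188), which stabilise the triple helix, had ratios of -0.21, -0.28 and -0.01. That of P4HB was 0.01 after median centring. The collagen chaperone gene SERPINH1 was at 3342 and 4029 (ratio 0.27, row SD 0.23). The lysyl hydroxylase genes PLOD1 and PLOD3 had ratios of 0.02 and -0.19 (PLOD1 -0.04 after loess and -0.02 after quantile normalization).

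Among the 20 genes above the limit, the largest ratios were those of CRTAP, SEC23A, KLHL12 and P3H4. CRTAP, the helper protein of prolyl 3-hydroxylase 1, was at 484 and 259, 1.87-fold lower (ratio -0.90, row SD 0.42). Its partner in that complex, P3H1, was at 5644 and 4358 (ratio -0.37, row SD 0.20), and the remaining member, the prolyl isomerase PPIB, had a ratio of 0.03 (-0.03 after loess and -0.02 after quantile normalization). P3H3 and P3H4, which in mouse form another complex with lysyl hydroxylase 1, were both above 0, with P3H3 at 3156 and 4014 (ratio 0.35) and P3H4 at 3083 and 4196 (ratio 0.44, row SD 0.23 for both). SEC23A, a coat subunit of the vesicles that carry procollagen, was at 119 and 212 (ratio 0.83, row SD 0.60). It passed the limit on the shBMI-1 array alone. KLHL12, a ubiquitin ligase adaptor that enlarges those vesicles, was at 275 and 451 (ratio 0.71, row SD 0.42). PLOD2, which hydroxylates the ends of fibrillar collagens, and P4HA3 were under the limit on both arrays. They were at 120 and 42.2 (ratio -1.51, row SD 0.76) and at 33.1 and 14.5 (ratio -1.19, row SD 0.72), and with a pseudocount of 50 both were short of 2-fold, at -0.89 and -0.37.

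Of the 14 enzymes and enhancers that trim and cross-link collagen, 7 were above the limit and none reached 1.5-fold. Among all genes above the limit, 10.1% were higher and 8.45% lower by 1.5-fold or more. LOXL4 (3614 and 4730, ratio 0.39, row SD 0.20), LOXL2 (2237 and 2662, ratio 0.25) and BMP1 (618 and 685, ratio 0.15) were above 0. The gene of a procollagen C-proteinase enhancer, PCOLCE, was at 6929 and 6295 (ratio -0.14). LOX itself was dim (32.3 and 26.0). So was TLL2, at 9.91 and 20.5 (ratio 1.05, row SD 0.72), with a ratio of 0.24 with a pseudocount of 50. The median was 0.01 as deposited and -0.07 after loess normalization. Of the 12 collagen receptors, 7 were above the limit, with a median ratio of -0.11, and none reached 2-fold. The shares of all genes above the limit past 2-fold were 3.23% higher and 3.55% lower. DDR2, a receptor kinase for fibrillar collagen, was at 1170 and 795 (ratio -0.56, row SD 0.30), and DDR1 was at 1641 and 1465 (ratio -0.16). OSCAR, an osteoclast-type collagen receptor, had a ratio of -0.95 and ITGA11, an integrin subunit for fibrillar collagen, one of 0.84, with row SDs of 0.60 and 0.76. ITGA11 (78.7 and 141) passed the limit on the shBMI-1 array alone. The shared integrin subunit ITGB1 was at 251 and 237 (ratio -0.08).

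Proteins that bind collagen in the matrix gave the largest ratio of the 5 collagen pathway lists. BGN encodes biglycan, a small leucine-rich proteoglycan that binds type I and type VI collagen. It was at 1774 in the control and 227 after silencing, 7.80-fold lower in its only row (ratio -2.96, row SD 0.30). Its ratio lay between -3.04 and -2.72 under the scalings, pseudocount and row summaries. Of the 11 genes of this list above the limit, BGN was the only one at least 2-fold lower, and 8 were below 0, with a median of -0.20 (-0.18 without BGN). Of all genes above the limit, 3.55% were at least 2-fold lower and 40% were below 0, with a median of 0.09. THBS1 (1157 and 670, ratio -0.79), TNXB (1171 and 688, ratio -0.77), the laminin chain gene LAMC1 (4105 and 2657, ratio -0.63) and AGRN (989 and 668, ratio -0.57) were below 0 by more than their row SDs of 0.30, 0.30, 0.23 and 0.30. TNXB has a near-identical partial copy in the genome, so its signal is uncertain as a separate measurement. FN1 was at 272 and 473 as the mean of 2 rows (ratio 0.80, row SD 0.42). The lumican gene LUM was dim on both arrays (22.2 and 14.6). The decorin gene DCN was under the limit as the mean of 4 rows (57.5 and 44.1), although 1 of the rows was above it at 259 and 175 (ratio -0.57).

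**Figure D4:**
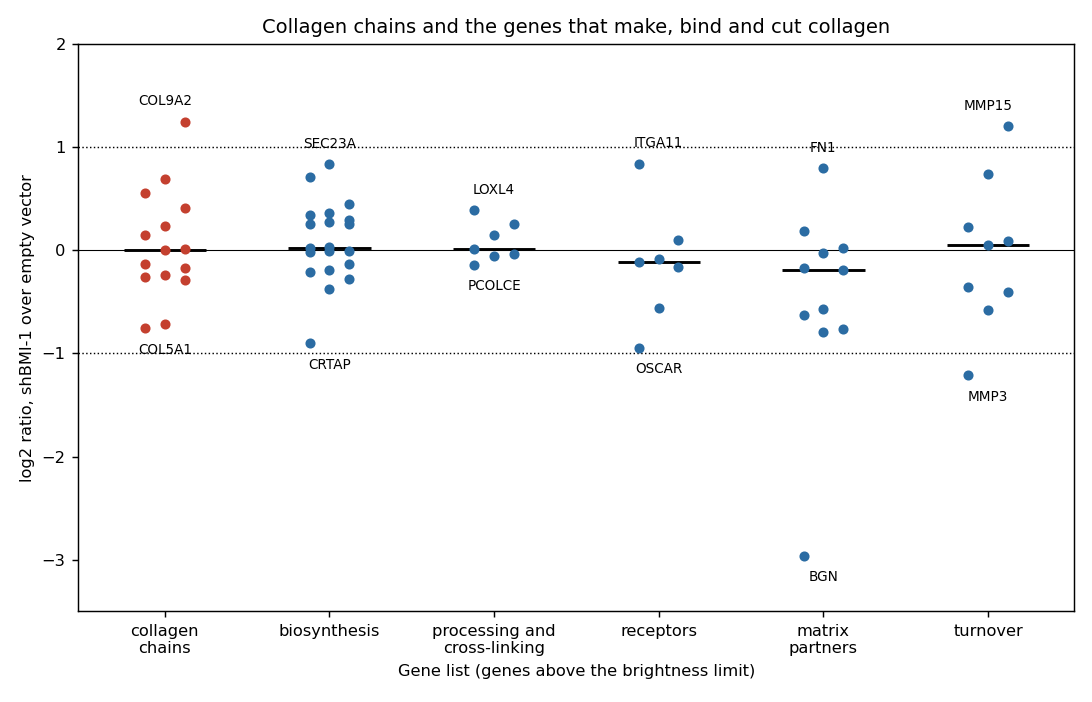
log2 ratio of shBMI-1 over empty vector for collagen chains (red) and for genes of 5 lists (blue), each point a gene above the brightness limit. Black bars are medians, dotted lines mark 2-fold, and the highest and lowest gene of each list is named. BGN lies at -2.96, far below the other matrix partners, and the biosynthesis and cross-linking genes lie within 2-fold.

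Of the 15 genes for collagen breakdown and its inhibitors, 9 were above the limit, with a median ratio of 0.05 as deposited and -0.01 after loess normalization. MMP15 (161 and 370, ratio 1.20, row SD 0.60) was at least 2-fold higher and MMP3 (145 and 62.6, ratio -1.21, row SD 0.76) at least 2-fold lower as deposited, but with a pseudocount of 50 their ratios were 0.996 and -0.79. MMP3 passed the limit only through the control array, where it was brighter, so the limit itself favoured its being counted as lower. Of all genes above the limit, 3.23% were higher and 3.55% lower by 2-fold or more. MMP2, a gelatinase, was at 6111 and 6343 (ratio 0.05, -0.01 after loess normalization), and MMP14, a membrane-bound collagenase, was at 246 and 287 (ratio 0.22). The inhibitor genes TIMP2 (4501 and 3410, ratio -0.40) and TIMP3 (7196 and 4807, ratio -0.58) were lower by more than their row SDs of 0.23 and 0.20. In contrast, TIMP1 was higher (7280 and 12135, ratio 0.74, row SD 0.20). TIMP4 was under the limit on both arrays, at 18.4 and 47.5. Its ratio was 1.37 (row SD 0.72), or 0.51 with a pseudocount of 50.

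Markers of other cell types, among them types that make collagen, were mostly under the brightness limit. With rows averaged, TWIST1 (544 and 560) was the only one of 8 fibroblast markers above it, but 1 row each of DCN (259 and 175) and TCF21 (171 with shBMI-1) also passed. The 8 summed to 854 and 802, a sum carried by TWIST1. Of the 7 fibroblast markers under the limit, 5 were below 0, and the median ratio of the 7 was -0.38. PDGFRA was at -1.05 (row SD 0.80) and PDPN at -0.95 (row SD 0.72). The 2 above 0 were THY1 (ratio 0.39) and TCF21 (ratio 0.22, from 2 rows at 1.35 and -0.90). Of all genes under the limit, 50.4% were below 0. None of 5 endothelial markers was above the limit (summed intensity 118 and 82.2). Of 4 white blood cell markers LAPTM5 was above it, at 152 in the control and 19.3 after silencing (ratio -2.98, row SD 0.80), and 1 row of CD14 also passed (144 with shBMI-1). LAPTM5 passed the limit only through the control array, where it was brighter. The 4 summed to 241 and 138, a fall carried by LAPTM5. No marker was at 0, and their part in the chains' ratios was not tested.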

How the data were processed

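Per the labels' protocols, oligo-dT-primed double-stranded cDNA from total RNA was Cy3-labelled and put on single-colour NimbleGen arrays. The authors deposited 1 linear intensity per sequence accession and array. For the scanner software, probe summary and normalization, the sources used here give nothing, and no background values or detection calls were used. Rows were named by the platform's annotation table: 18188 rows had 1 symbol, none had several and 26845 were unnamed here. The log2 was taken with no pseudocount or further scaling, and rows of a gene were averaged on that scale. With 1 array per group no test was made, and the number of arrays limits the precision. Members and gene lists were chosen with earlier results of these data known. Every chain above the brightness limit was named; dim chains were named if they had several rows, passed 2-fold or shared a type with a named chain. Of each list, the main collagen genes and the 4 largest ratios above the brightness limit were named. Other list genes were named with their values seen. List symbols were matched to the platform's by symbol or NCBI gene ID in RefSeq of GRCh38.p14. Alternatives were other scalings (median, quantile, loess with span 0.3 and 3 iterations), a pseudocount of 50, the brightest row, other brightness limits, and 1.5-fold and 3-fold thresholds. Python 3.11.15 with numpy 2.4.6, pandas 2.3.3, statsmodels 0.14.6 and matplotlib 3.10.9 was used.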

Additional observations from a re-analysis of the deposited data

How the results depend on the processing

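The count of 1 chain at least 2-fold higher was 0 with a pseudocount of 50, with a limit on both arrays, with a limit at the 75th percentile and at 3-fold, and it was 3 with no brightness limit and 2 at 1.5-fold. The count of 0 chains at least 2-fold lower was 1 with no limit and 2 at 1.5-fold. Over all genes above the limit, 288 higher and 317 lower genes became 142 and 190 with a pseudocount of 50, 883 and 917 with no limit, 47 and 51 with a limit at the 75th percentile, 90 and 84 with a limit on both arrays, 901 and 754 at 1.5-fold, and 80 and 132 at 3-fold. The median ratio of the chains was -0.15 over all chains and -0.26 over those past the 75th percentile. These limits and thresholds change which genes are counted, and a pseudocount shrinks the ratios of dim genes. Of 210 chain ratios under other scalings, the pseudocount or the brightest row, 208 moved by less than the row SD. The exceptions, COL3A1 and COL15A1 with a pseudocount of 50, are dim chains. Median centring moves every ratio by the same small amount, and the brightest row can change only the 3 chains with several rows. Much of that count was thus fixed in advance. Signs changed in 3 of the 210, for COL4A2 and COL6A1, whose ratios were near 0. The medians of the chains under the limit and of the pathway lists under these settings were added after the data were seen. No paired analysis was possible because each group had 1 array.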
